A study of Mus musculus with 12 samples.

Results

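The lungs of Fra-1∆/∆ and Fra-1+/+ mice that had been given PBS alone were compared, which addresses what the loss of Fra-1 changes in lung that has had no bleomycin. Fra-1 is the protein of Fosl1. The 6 mice were all those of the series whose titles start with KOC (3 mice, PBS-treated Fra-1∆/∆) or WTC (3 mice, PBS-treated Fra-1+/+), of 12 mice in all, and the comparison ran over the 23410 of 35556 transcript clusters that carry a gene symbol. A transcript cluster is the set of array probes assigned to 1 gene locus. The labels give the strain as C57/129S, the age as 2 months (the methods give an older range) and the treatment as 30 µL of PBS into the trachea 5 days earlier. By the methods, Fra-1∆/∆ mice carried a floxed Fra-1 gene and the Meox2 (Sox2)-Cre transgene, which deletes it in the embryo and not in the extra-embryonic tissues, and the Fra-1+/+ mice were of the floxed line without Cre, so the controls carry the floxed alleles and lack the transgene. Both lines were of a mixed C57BL6/129 background, and no source says which segments of the genome each mouse had from either strain. The left lung of each mouse went to 1 Affymetrix MoGene 1.0ST array. The other 6 mice, given 0.075 U of bleomycin in the same volume (KOT, Fra-1∆/∆, and WTT, Fra-1+/+, 3 each), share no array with these 6 and serve here as a second reading of the genotype.

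Fra-1 is a member of the Fos family. It dimerizes with Jun proteins to form AP-1, a transcription factor that binds TGACTCA and similar sites in promoters and enhancers. The motif was counted here in a loose form, TGANTCA (N is any base). In lung, AP-1 is best known for genes of the stress response, inflammation, matrix turnover and epithelial repair, and Fra-1 itself is kept at a low level until a cell is stimulated. A whole-lung array reads all cell types at once, so fewer cells of a type and less RNA per cell cannot be told apart.

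All values are log2 signals as the authors deposited them, so a difference of 1 is 2-fold. Medians of the arrays lay between 7.14 and 7.15 in KOC and between 7.18 and 7.21 in WTC, each KOC array below each WTC array. Lung markers had high signal in each of the 6 mice, with the surfactant gene Sftpc at 13.89 to 14.07, the club cell gene Scgb1a1 at 13.72 to 13.93 and the alveolar type 1 gene Ager at 12.98 to 13.14. The labels give female mice, but the X-inactivation RNA Xist lay between 4.47 and 4.94 and the Y-linked gene Eif2s3y between 8.52 and 8.87 in the same 6 mice. All KOC mice have low animal numbers (53, 55 and 67), which among the controls only WTC 76 shares, so animal number and genotype cannot be told apart for WTC 157 and 158. The first principal component of the 6 arrays (35.6% of the variance) set WTC 76 and WTC 157 apart from the other 4 mice, with WTC 158 next to the KOC mice.

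Fosl1 had signals of 6.68, 6.26 and 6.56 in KOC 53, 55 and 67 and of 6.37, 6.76 and 6.86 in WTC 76, 157 and 158. The groups overlapped, and the difference was -0.16 (SE 0.15, 95% interval -0.50 to 0.17). The probe table does not say whether these probes lie in the deleted part, so they do not check the deletion. With bleomycin the difference was -0.80 (SE 0.15) and each KOT mouse lay below each WTT mouse. None of the 10 measured genes nearest to Fosl1 on chromosome 19 separated the groups, and their differences lay between -0.10 and 0.11. Meox2, for which the Cre line is named, differed by -0.33 (SE 0.19) with PBS and by -0.58 with bleomycin.

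Few genes passed the adjusted threshold in PBS-treated lung. By limma, 3 of 23410 clusters were higher in KOC (0.0128%) and 0 were lower (0.0%) at a Benjamini-Hochberg adjusted p under 0.05, while 688 (2.94%) were higher and 1611 (6.88%) lower at an unadjusted p under 0.05. The 95% interval of the difference lay within 2-fold in either direction for 22748 clusters (97.2%) and within 1.5-fold for 89.2%. The median SE was 0.10. Of the 110 clusters that differed by more than 2-fold, 19 were higher and 91 lower. With 3 mice against 3, the smallest p of an exact two-sided permutation test is 0.1, so no gene was tested alone. The 3 genes that passed were H2-Ea, Abca17 and Tmem252.

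H2-Ea is the alpha chain of the MHC class II molecule I-E, which not all mouse strains make. H2-Ea was at 11.46, 11.34 and 11.80 in KOC 53, 55 and 67 and at 6.01, 5.75 and 5.71 in WTC 76, 157 and 158. No other cluster separated the groups as far. It rose by 5.71 (SE 0.17, 95% interval 5.35 to 6.08, adjusted p = 1.2e-08), which is 52.5-fold, and lay between 5.58 and 5.81 when any 1 of the 6 mice was left out. In the bleomycin-treated mice H2-Ea was at 11.58, 11.79 and 11.71 in KOT and at 5.20, 5.83 and 5.75 in WTT, a difference of 6.10 (SE 0.17). The genotype difference was larger by 0.39 (SE 0.23) with bleomycin, which limma did not call (adjusted p of the interaction = 0.963). The genes beside it on chromosome 17 gave no such signal. Its partner chain H2-Eb1 differed by -0.01 (SE 0.16), H2-Aa and H2-Ab1, the chains of I-A, by 0.03 (SE 0.13) and -0.27 (SE 0.13), and H2-Eb2 by -0.44 (SE 0.43). Over the 10 measured neighbours the differences lay between -0.44 and 0.03. Of these, Btnl1 and BC051142 separated the groups, both lower in KOC, by 0.15 and 0.41 on the log2 scale.

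Abca17, an ABC transporter of the lipid-exporting A family, was at 7.97, 8.02 and 8.08 in KOC 53, 55 and 67 and at 6.24, 6.76 and 6.84 in WTC 76, 157 and 158. It rose by 1.41 (SE 0.13, 95% interval 1.13 to 1.69, adjusted p = 0.00239), or 2.66-fold. With bleomycin its signal was 6.25, 6.30 and 6.31 in KOT and 6.44, 6.32 and 6.25 in WTT, so the KOC mice alone were high and the difference there was -0.05 (SE 0.13). The difference between the treatments was -1.46 (SE 0.18, limma adjusted p of the interaction = 0.117). The adjoining Abca3, the surfactant lipid transporter of alveolar type 2 cells, differed by 0.16 (SE 0.12), and the 10 neighbours lay between -0.35 and 0.16. Of these, Abca3 was apart upward, and Tbc1d24 (-0.35, SE 0.12) and Dnase1l2 (-0.21, SE 0.08) were apart downward.

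Tmem252, a small membrane protein, was at 8.99, 8.72 and 8.84 in KOC 53, 55 and 67 and at 8.07, 7.94 and 7.85 in WTC 76, 157 and 158. It rose by 0.90 (SE 0.09, 95% interval 0.69 to 1.10, adjusted p = 0.00531), or 1.86-fold. Here it was the WTC mice that stood apart, since KOT (8.71, 8.52 and 8.73) and WTT (8.63, 8.77 and 8.75) both lay near KOC, with a difference of -0.07 (SE 0.09) and an interaction of -0.96 (SE 0.13, limma adjusted p = 0.128). Among its 10 neighbours on chromosome 19, Apba1, Fam122a and Pgm5 also separated the groups, each higher in KOC, by 0.15, 0.08 and 0.36. Tmem252 did not pass without WTC 157 (adjusted p = 0.0519), and neither Abca17 nor Tmem252 passed when the fit held the 6 PBS arrays alone.

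A further cluster, which the probe table leaves without a symbol and the study lists as Serpina1b, a mouse alpha-1-antitrypsin gene, showed the same pattern as Abca17. It was at 7.68, 7.80 and 8.47 in KOC 53, 55 and 67 and at 5.60, 4.85 and 5.59 in WTC 76, 157 and 158. It lay outside the 23410 clusters, and in a fit to all 35556 clusters it rose by 2.64 (SE 0.24, adjusted p = 0.00535), or 6.23-fold. After bleomycin it was at 4.84 to 5.26 in KOT and 4.97 to 5.18 in WTT. The cluster listed as Serpina1e, which carries 5 symbols of near-identical copies, differed by 1.35 (SE 0.29) with PBS and by -0.06 with bleomycin, and probes of such copies cannot be assigned to 1 of them. Serpina1d, another copy with a cluster of its own, differed by -0.19 (SE 0.19).

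**Figure D1:**
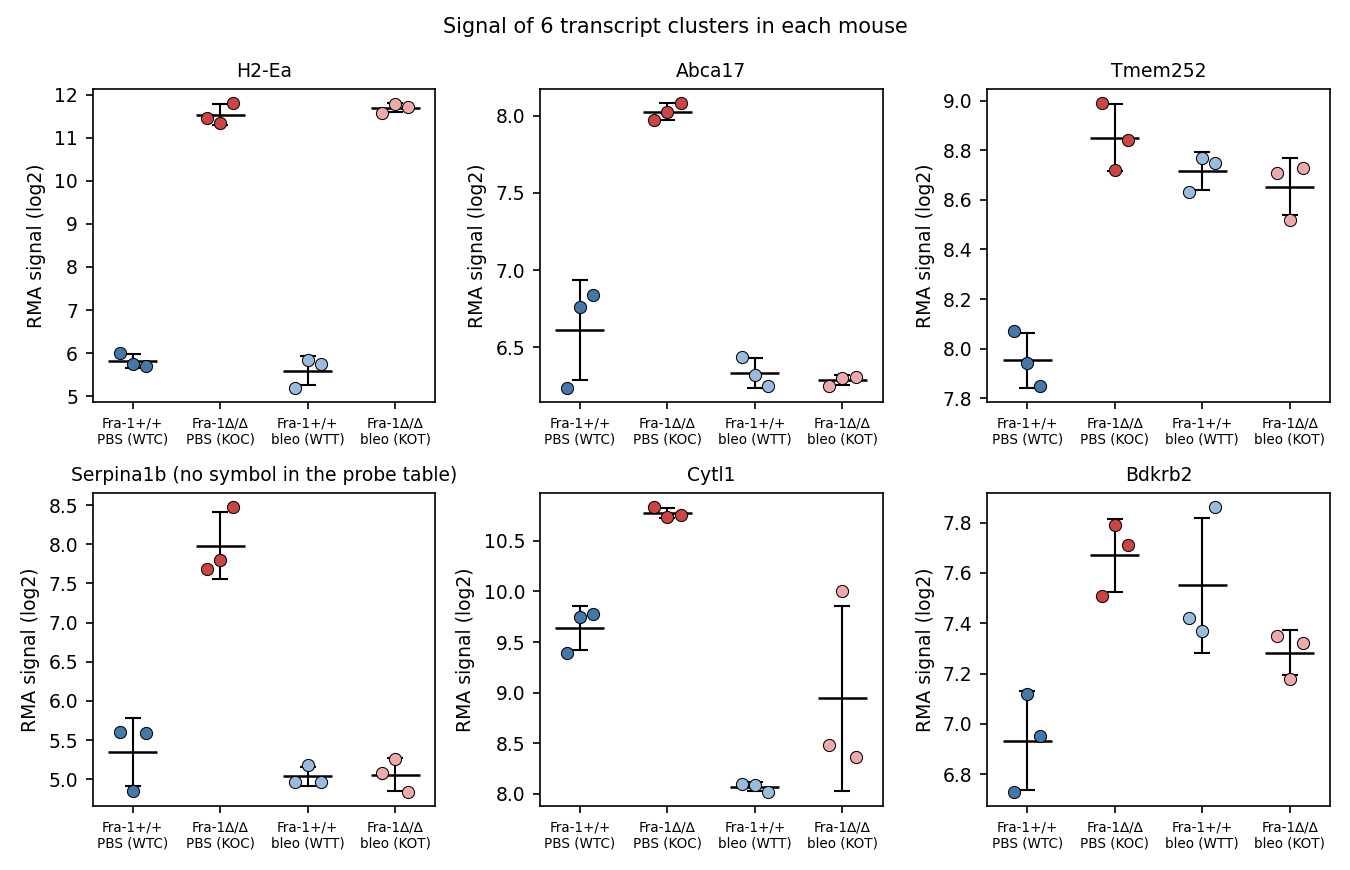
RMA signal (log2, each panel on its own scale that does not start at 0) of 6 transcript clusters in the 3 mice of each group. Points are mice, lines means and bars SD (n = 3). H2-Ea is near 11.5 in both Fra-1∆/∆ groups and under 6.1 in both Fra-1+/+ groups, Abca17 and Serpina1b are high in KOC alone, and Tmem252 is low in WTC alone.

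Because AP-1 acts through its motif, the promoters of the changed genes were read from RefSeq sequence (mouse build GRCm38.p6, 250 bases before to 50 after the start). The table holds promoters of Abca17 and Tmem252. The 250 bases before the start of both are shown, with those of Il1a, which the study lists, and of Tecrl, which is among the genes with large differences below and encodes a reductase-like protein of heart muscle, as examples that do hold the motif. Capitals mark TGANTCA, which reads the same on both strands.

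Abca17, chr17:24351060-24351309, minus strand: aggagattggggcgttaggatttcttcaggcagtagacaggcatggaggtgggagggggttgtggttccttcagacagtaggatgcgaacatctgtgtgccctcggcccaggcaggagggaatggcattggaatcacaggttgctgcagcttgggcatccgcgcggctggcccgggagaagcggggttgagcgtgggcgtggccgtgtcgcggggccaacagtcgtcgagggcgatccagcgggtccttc

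Tmem252, chr19:24673758-24674007, plus strand: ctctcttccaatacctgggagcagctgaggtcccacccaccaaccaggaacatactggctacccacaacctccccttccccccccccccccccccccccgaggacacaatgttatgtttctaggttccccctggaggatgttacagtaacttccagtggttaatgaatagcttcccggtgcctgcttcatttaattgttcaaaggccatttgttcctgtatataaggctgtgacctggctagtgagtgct

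Il1a, chr2:129309973-129310222, minus strand: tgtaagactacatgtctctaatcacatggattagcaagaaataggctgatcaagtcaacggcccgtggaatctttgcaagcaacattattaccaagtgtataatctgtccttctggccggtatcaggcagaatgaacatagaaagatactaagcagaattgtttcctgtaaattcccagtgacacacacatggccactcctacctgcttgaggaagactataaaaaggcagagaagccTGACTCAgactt

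Tecrl, chr5:83355196-83355445, minus strand: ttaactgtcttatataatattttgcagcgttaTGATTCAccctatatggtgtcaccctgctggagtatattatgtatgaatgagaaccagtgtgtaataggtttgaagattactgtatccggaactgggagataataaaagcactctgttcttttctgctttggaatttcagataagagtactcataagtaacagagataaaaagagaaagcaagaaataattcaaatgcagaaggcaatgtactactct

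The window of Abca17 or Tmem252 holds no TGANTCA. That of Il1a holds TGACTCA with its first base 12 bases before the start. That of Tecrl holds the looser match TGATTCA 218 bases before the start. The motif is in 7.81% of all 32851 promoters given. Of the 463 genes that were higher in KOC at an unadjusted p under 0.05 with groups apart, meaning that each KOC mouse lay above each WTC mouse, 351 have a promoter and 16 of them (4.56%) hold it. Of the 880 genes that were lower in the same way, 668 have a promoter and 86 (12.9%) hold it, against 8.08% of the 15614 measured genes with a promoter. Dim clusters were over-represented among the lower genes. With a mean signal of at least 6 the shares were 3.61% of 332 higher, 8.33% of 276 lower and 6.83% of all 12178 genes. For TGACTCA alone, without a limit on signal, the shares were 3.7% of higher genes, 6.59% of lower genes and 5.4% of all measured genes with a promoter. A match describes the letters only.

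Below the adjusted threshold, genes were ranked by size among clusters with 1 symbol, an unadjusted p under 0.05 and groups apart in either direction. Groups were apart in 1611 clusters that were higher in KOC (6.88%) and in 2194 that were lower (9.37%), and both conditions held for 536 (2.29%) and 1209 (5.16%). The genes of the next 3 paragraphs were picked for their size in this contrast, so their differences are a description, and none passed the adjusted threshold.

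Beside the 3 genes above, the largest positive differences were of antibody genes. Ighg3, an immunoglobulin heavy chain constant gene, was at 9.59, 6.91 and 8.56 in KOC 53, 55 and 67 and at 6.38, 5.78 and 5.57 in WTC 76, 157 and 158, and differed by 2.45 (SE 0.76). Igkv19-93, a light chain variable segment, differed by 1.84 (SE 0.65), with KOC at 10.84 to 11.79 and WTC at 8.64 to 10.84. A second cluster of it differed by 0.78 (SE 0.82) with overlapping groups, and by -0.55 without KOC 67. Ighg3 and the first Igkv19-93 cluster were also higher in KOT, by 2.33 and 4.19. Of 15 measured B cell markers 0 reached an unadjusted p under 0.05 with PBS, and their median was 0.02. With bleomycin their median was 0.82, and 11 of the 15 were apart upward, against 6.92% of all clusters. The part of B cells in the antibody genes was not tested.

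The other genes with large positive differences had varied roles. Cytl1, a secreted protein of cartilage, was at 10.83, 10.74 and 10.76 in KOC 53, 55 and 67 and at 9.39, 9.75 and 9.78 in WTC 76, 157 and 158 (difference 1.14, SE 0.32). Aspn, a small matrix proteoglycan that binds collagen and TGF-β, was at 9.25, 8.91 and 9.08 in KOC and at 8.31, 8.31 and 7.66 in WTC (0.99, SE 0.23). Neither gene had a KOC mouse within the range of the controls. Veph1, an inhibitor of TGF-β signaling, differed by 1.23 (SE 0.23), though KOC 55 at 7.47 lay well below KOC 53 at 8.63. Cftr, the chloride channel of airway epithelium, was at 7.92 to 8.27 in KOC and 7.13 to 7.69 in WTC (0.79, SE 0.19). Hhip, an inhibitor of hedgehog signaling, was at 9.61 to 9.72 in KOC and 8.72 to 9.06 in WTC (0.76, SE 0.26). Tecrl differed by 0.79 (SE 0.26). Trdn, which holds the calcium release complex of muscle together, differed by 1.32 (SE 0.27) in 1 of its 19 clusters. This cluster was dim, at 4.63 to 5.05 in KOC and 3.36 to 3.60 in WTC. The other 18 lay between -0.44 and 0.58, and of all 19 clusters 2 were apart upward and 2 downward. Why this cluster alone stood out was not tested. Abhd1, a hydrolase, differed by 0.82 (SE 0.16), Sv2c, a vesicle protein, by 0.85 (SE 0.16), Nrcam, a cell adhesion molecule, by 0.85 (SE 0.22), and the protocadherin Pcdhb9 by 0.90 (SE 0.24).

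Among lower genes, 10 of the 12 largest differences came from clusters of 1 symbol, Gm7982, described below with other repeated loci. The other 2 were Mir680-1, a microRNA gene, at -1.07 (SE 0.30), and Nxpe2 at -1.04 (SE 0.27). Several genes known from monocytes and macrophages were also lower, and they are described here after their values were seen. Chil3, a chitinase-like protein of alveolar macrophages, was at 9.28, 10.51 and 10.34 in KOC 53, 55 and 67 and at 10.97, 10.62 and 10.75 in WTC 76, 157 and 158 (-0.74, SE 0.29), and at -0.36 without KOC 53. Adgre4, an adhesion receptor of macrophages, was at 7.06 to 7.19 in KOC and at 7.36, 7.59 and 8.56 in WTC (-0.71, SE 0.25), Treml4 at 7.54 to 8.05 and at 8.11, 8.14 and 9.31 (-0.70, SE 0.32), and Cd300e, of monocytes, at 7.05 to 7.34 and at 7.42, 7.76 and 8.29 (-0.58, SE 0.18). In each of these 3 genes WTC 158 was the highest mouse, and without it the differences were -0.35, -0.31 and -0.35. Gdpd2, a phosphodiesterase, differed by -0.86 (SE 0.20), Adamdec1, a protease of macrophages and dendritic cells, by -0.75 (SE 0.18) and Cntn1, a neuronal adhesion molecule, by -0.67 (SE 0.11). Of 14 measured alveolar macrophage markers 0 were higher and 2 lower (Chil3 and Gpnmb) at an unadjusted p under 0.05, with a median of 0.04. Of 14 markers of monocytes and interstitial macrophages 0 were higher and 0 lower, with a median of -0.02. Over all clusters the shares at that p were 2.94% higher and 6.88% lower.

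**Figure D2:**
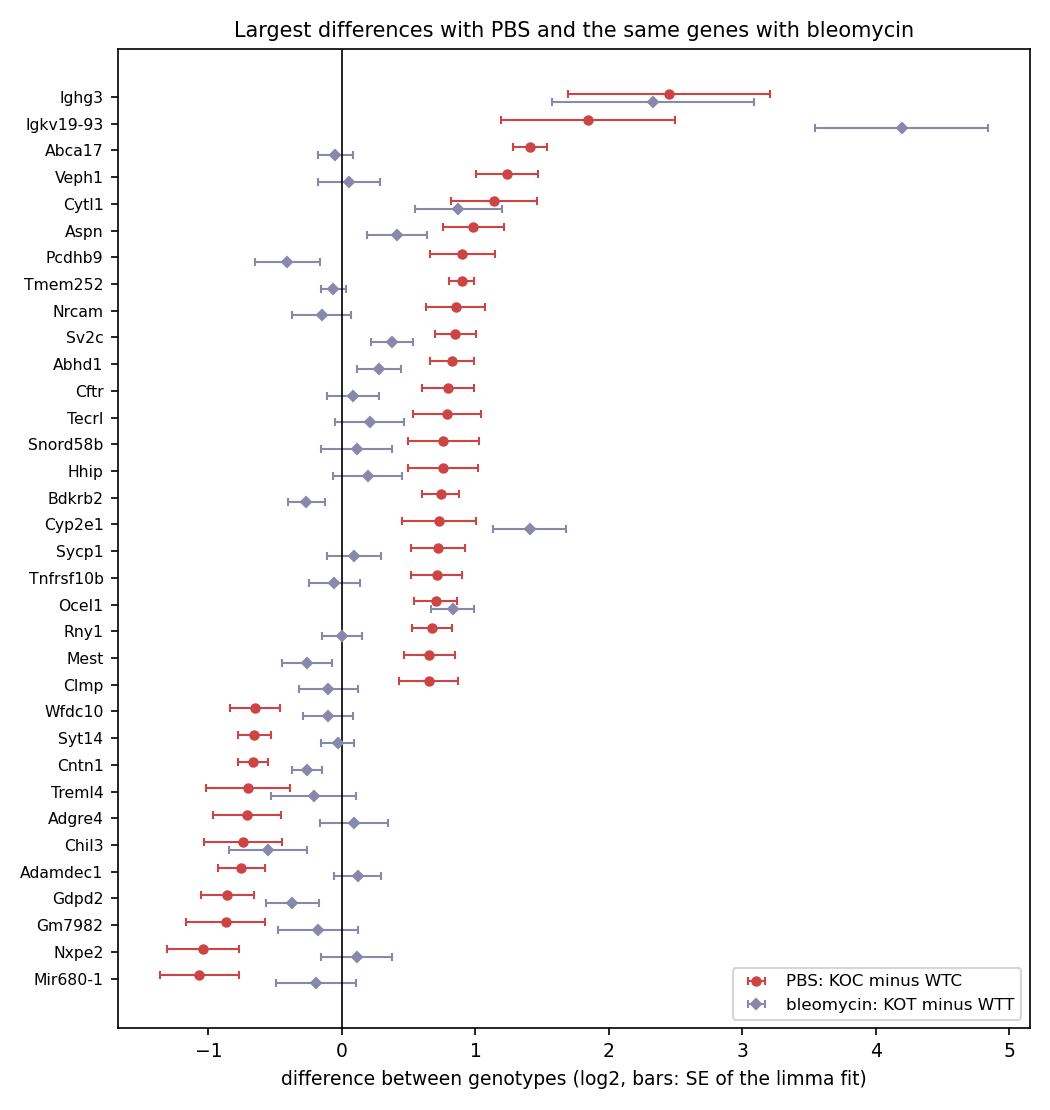
Difference between Fra-1∆/∆ and Fra-1+/+ mice (log2, horizontal axis) with PBS (circles, KOC minus WTC) and with bleomycin (diamonds, KOT minus WTT) for the genes with the largest PBS differences, 1 cluster per gene, without H2-Ea and without olfactory and vomeronasal receptors. Bars are the SE of the limma fit. Ighg3, Igkv19-93, Cytl1, Cyp2e1 and Ocel1 lie to the right with both treatments, while Abca17, Veph1, Tmem252 and Cftr lie near 0 with bleomycin.

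The bleomycin-treated mice gave a second reading of the same genotypes on other arrays. Of the 1611 clusters with KOC above WTC, 188 (11.7%) also had each KOT mouse above each WTT mouse, against 6.92% of all clusters, and 53 (3.29%) had the reverse. Of the 2194 with KOC below WTC, 344 (15.7%) were also lower in KOT, against 8.8% of all, and 35 (1.6%) had the reverse. So 532 of 3805 separated clusters (13.98%) separated the same way again. Dim clusters leaned lower in both comparisons, and the part of this in the shares was not tested. Among clusters with a mean of at least 8, 131 of 1147 higher ones (11.4%, against 9.75% of all these clusters) and 32 of 288 lower ones (11.1%, against 3.7%) did so.

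At an unadjusted p under 0.05 in both treatments, 203 of the 21789 clusters with 1 symbol were apart the same way, 69 higher and 134 lower. With PBS alone, 2.29% of all 23410 clusters met both conditions upward and 5.16% downward. The 2 p-values of a cluster share 1 estimate of its spread, pooled over the 4 groups, so they are not independent of each other. Beside H2-Ea, Ighg3, Igkv19-93 and the cluster of Trdn described above (1.32 and 1.02), they included the following genes, which were named after their values were seen. Cyp2e1, a cytochrome P450 that oxidizes ethanol and other small molecules, was at 8.57, 9.20 and 8.63 in KOC 53, 55 and 67 and at 7.90, 8.31 and 8.01 in WTC 76, 157 and 158. It differed by 0.73 (SE 0.28) with PBS and by 1.41 with bleomycin. Ocel1 differed by 0.70 (SE 0.16) and 0.83, Cytl1 by 1.14 and 0.87, and Lum, the matrix proteoglycan lumican, by 0.50 (SE 0.13) and 0.95. Ecm2, an extracellular matrix protein, differed by 0.45 (SE 0.13) and 0.44, and the tight junction protein Cldn1 by 0.43 (SE 0.12) and 0.43. P2ry14, a receptor for UDP-glucose, was at 8.54 in each of the 3 KOC mice and at 8.16, 8.05 and 8.04 in WTC 76, 157 and 158, and differed by 0.46 (SE 0.07) and 0.30. Many of the clusters lower in both were dim olfactory receptors, for example Olfr1445 at -0.57 and -0.45. Vegfc, the growth factor of lymphatic vessels, was also lower in both, by -0.39 (SE 0.11) and -0.34. So was Ccbe1, a secreted protein needed to activate Vegfc, by -0.36 (SE 0.15) and -0.65. Ccbe1 was at 7.84, 7.82 and 7.76 in KOC and at 8.14, 8.22 and 8.13 in WTC. The markers of lymphatic endothelium Prox1, Flt4 and Lyve1 differed by -0.09 (SE 0.14), 0.11 (SE 0.14) and -0.15 (SE 0.23), and their groups overlapped.

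Bdkrb2, the bradykinin B2 receptor, went the other way in the 2 treatments. It was at 7.51, 7.79 and 7.71 in KOC 53, 55 and 67 and at 6.73, 7.12 and 6.95 in WTC 76, 157 and 158, a difference of 0.74 (SE 0.14). With bleomycin KOT lay at 7.18 to 7.35 and WTT at 7.37 to 7.86, a difference of -0.27 (SE 0.14). The interaction was -1.01 (SE 0.20, limma adjusted p = 0.754). Over all clusters 0 interactions passed by limma, 1193 had an unadjusted p under 0.05, and the smallest adjusted p was 0.117.

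The study lists 24 clusters for this comparison, which were chosen on these arrays and so are no independent evidence of their direction. In the limma fits here 15 were higher and 9 lower in KOC, and 10 had groups apart. Of the 24, 11 had an unadjusted p under 0.05 and 1, listed as Serpina1b, passed. The study used another test, the local-pooled-error test described below. Rebuilt here, that test gave an adjusted p under 0.01 for 17 of the 20 listed clusters that carry a symbol. For 13 of the 24 the SE was over 0.3, where the median of all clusters was 0.10. The SE pools the spread of all 4 groups, so the bleomycin-treated mice count in it too. For Cytl1 (SE 0.32), for example, the SD was 0.05 in KOC, 0.21 in WTC, 0.91 in KOT and 0.04 in WTT. The mice of a group differed widely in several genes of mucosal defence. Reg3g, an antibacterial lectin, was at 9.15, 11.44 and 12.56 in KOC 53, 55 and 67 and at 12.30, 8.33 and 8.63 in WTC 76, 157 and 158 (difference 1.30, SE 1.03). The B cell chemokine Cxcl13 was at 9.92, 9.72 and 11.56 in KOC and 11.66, 8.93 and 9.17 in WTC (0.48, SE 0.72). In both genes KOC 67 and WTC 76 were the highest mice of their groups. Ctse, an aspartic protease of mucosa, was at 9.17, 9.43 and 9.03 in KOC and at 8.80, 7.02 and 7.32 in WTC (1.499, SE 0.71). Baiap2l1, which links membranes to actin, was at 11.37, 11.69 and 9.48 in KOC and at 9.27, 9.40 and 9.53 in WTC (1.44, SE 0.42), so KOC 67 lay within the controls, and the other 2 clusters of this gene differed by 0.04 or less. The early cytokine Il1a differed by 0.69 (SE 0.61) and the acute phase protein Saa3 by 0.80 (SE 0.53), with overlapping groups. Nlrc5, which activates MHC class I genes, has 19 clusters, all lower in KOC by 0.12 to 0.55, of which 3 had groups apart. The cluster listed as H2-Q6, an MHC class I gene, differed by -0.61 (SE 0.21), and that listed as Sirpb1a, a receptor of myeloid cells, by -0.95 (SE 0.27), with groups apart. In the bleomycin-treated mice the cluster listed as H2-Q6 was at 0.22 and Nlrc5, in its listed cluster, at 0.27.

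Of 49 gene lists (cell type markers, pathways and controls), 1 held a gene that passed, MHC class II with H2-Ea, and 20 held no gene at an unadjusted p under 0.05. No list had a median beyond 0.2 in either direction, and that of all 19938 genes was -0.0027. Of the 15 measured AP-1 genes, Jund alone reached an unadjusted p under 0.05. It was at 10.36, 10.42 and 10.23 in KOC 53, 55 and 67 and at 10.08, 10.01 and 10.13 in WTC 76, 157 and 158, a difference of 0.27 (SE 0.09). Its usual Fos partners had values of -0.29 (SE 0.16) for Fos, -0.28 (SE 0.26) for Fosb and 0.14 (SE 0.21) for Fosl2, and Jun and Junb were at -0.06 (SE 0.11) and -0.08 (SE 0.18). Of 26 genes known as AP-1 targets, 0 reached an unadjusted p under 0.05, 1 (Mmp10) had groups apart, lower in KOC by 0.14, and the median was 0.01. Of 23 immediate early genes 0 did either.

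Most matrix genes had small positive differences in KOC. Of 38 measured genes of the matrix other than collagens, 5 were higher and 1 lower at an unadjusted p under 0.05, and 10 were apart upward and 1 downward, with a median of 0.13, or 0.09 with loess and 0.17 with equal medians of the arrays. Over all clusters the shares were 2.94% and 6.88% at that p, and 6.88% and 9.37% apart. These genes have high signal (list means of 9.77 to 9.97), and in group 9 of 10 by signal, described below, 13.2% of all clusters were apart upward. Postn, which encodes periostin, was at 11.71, 11.64 and 11.52 in KOC 53, 55 and 67 and at 11.31, 11.37 and 11.40 in WTC 76, 157 and 158 (0.26, SE 0.07). Fn1, which encodes fibronectin, was the 1 that was lower, at 11.53, 11.37 and 10.96 against 11.82, 11.70 and 11.82 (-0.49, SE 0.15). Of 25 collagens 3 were higher (Col6a2, Col14a1 and Col3a1, by 0.21, 0.32 and 0.36) and 1, the basement membrane chain Col4a6, lower, by 0.53 on the log2 scale. The fibrillar chains Col1a1 and Col1a2 differed by 0.08 (SE 0.16) and 0.20 (SE 0.15). With bleomycin the medians of the matrix and collagen lists were -0.06 and -0.20. Among 14 markers of smooth muscle and pericytes, Kcnj8, Cspg4 and Pdgfrb were higher, by 0.29, 0.21 and 0.24, and the median was 0.15, or 0.04 without KOC 55. Of 21 genes of TGF-β signaling and response 1 (Smad2, 0.21) was higher and 0 lower, and Tgfb1 itself differed by 0.03 (SE 0.09).

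Epithelial and other lists held small differences. For the counts below, 2.94% of all clusters were higher and 6.88% lower at an unadjusted p under 0.05. All but 1 of 15 alveolar type 2 markers had a positive difference, 5 with groups apart, none at an unadjusted p under 0.05, and the median was 0.13. These are bright clusters, and in the brightest group of all clusters 9.78% were apart upward and the median was 0.04. The largest was Napsa, a protease that processes surfactant protein, at 11.39, 11.54 and 11.42 in KOC 53, 55 and 67 and 11.21, 11.07 and 11.27 in WTC 76, 157 and 158 (0.26, SE 0.12). Of 20 ciliated cell markers the tubulin Tuba1a was higher by 0.26 (SE 0.08) and Cdhr3, an airway cadherin, was lower, at 9.38, 9.37 and 9.60 in KOC and 10.02, 9.78 and 9.96 in WTC (-0.47, SE 0.12). Of 17 endothelial markers Vwf, the von Willebrand factor, was lower (-0.44, SE 0.13). Of 27 genes of the acute phase and mucosal defence the mucin Muc5ac was higher (1.04, SE 0.44), the median was 0.17, and without KOC 67 or without WTC 76 it was 0.10 or 0.42. Of 21 genes of cell death and p53 response Tnfrsf10b, a death receptor for TRAIL, Zmat3 and Perp were higher, by 0.71, 0.22 and 0.28, and 0 lower. Of 21 cytochromes P450 and aldehyde oxidases Cyp2e1 and Cyp1a1 (0.87, SE 0.28) were higher. Of 15 markers of cardiac muscle, which whole lung holds in its veins, Myh7 alone was higher (0.40, SE 0.08), while 12 of the 15 had a negative difference. The sum of these markers moved with single mice, since their mean signal lay between 8.18 and 9.42 in KOC and between 8.76 and 9.15 in WTC. The same held for B cell markers, at 8.14 to 9.47 in KOC and 7.95 to 9.42 in WTC, and the median of that list was -0.40 without WTC 157 and 0.35 without WTC 76. The part of such cell types in other differences was not tested.

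**Figure D3:**
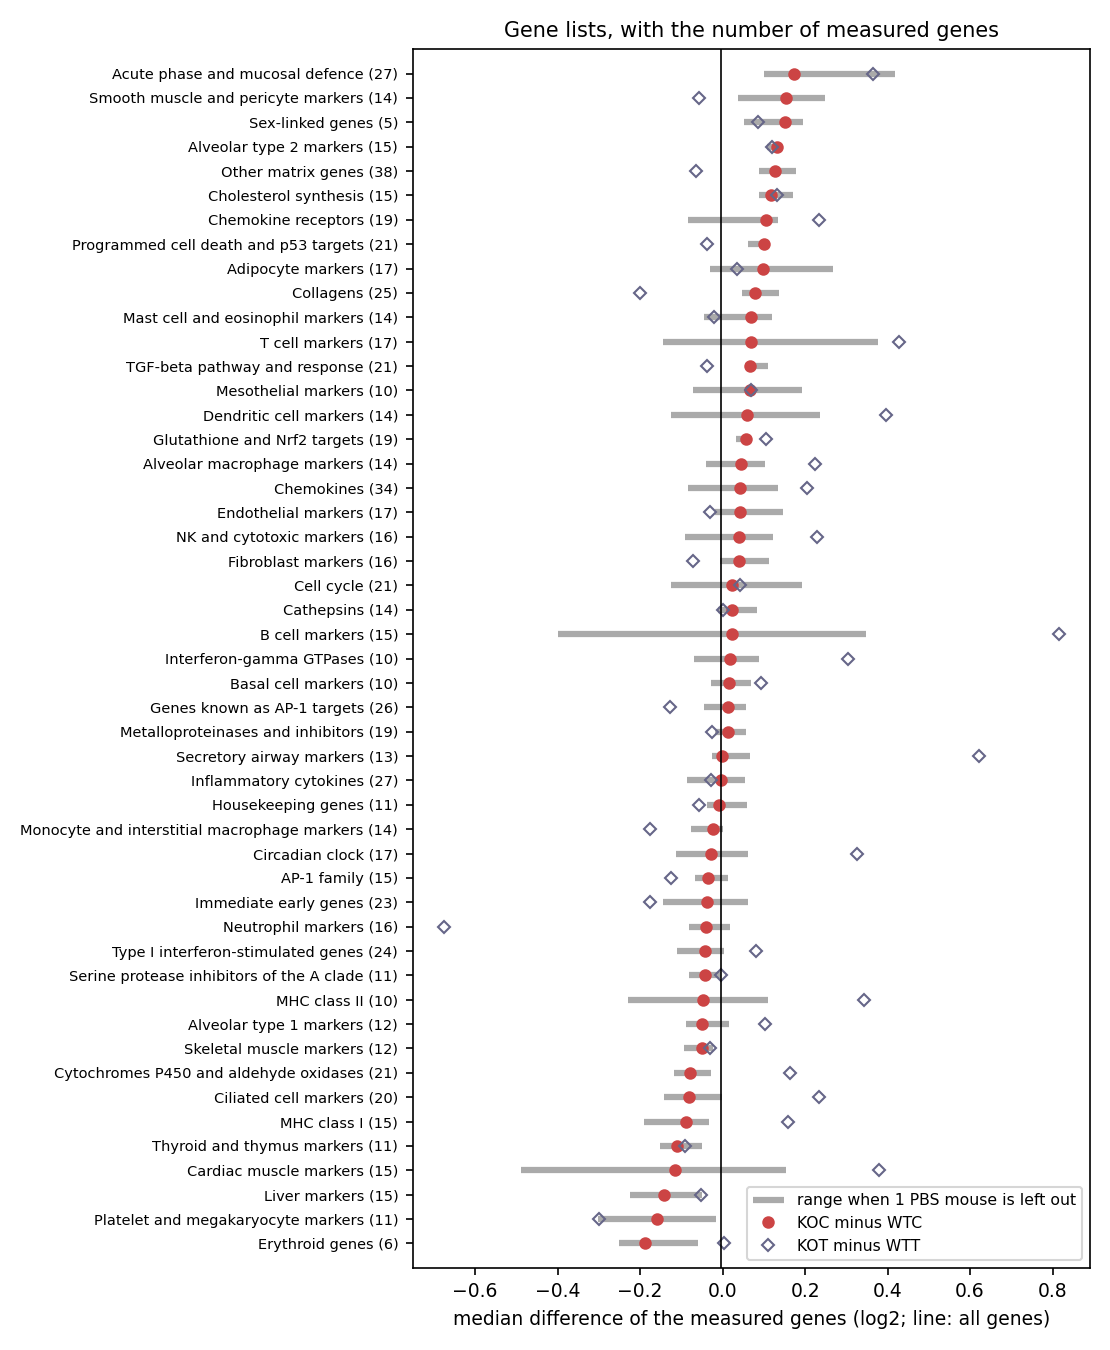
Median difference between genotypes (log2) of the measured genes of 49 lists, with the number of genes in parentheses. Circles are KOC minus WTC, grey bars the range of that median when any 1 of the 6 PBS mice is left out, and diamonds KOT minus WTT. The vertical line is the median of all genes with PBS. All circles lie between -0.2 and 0.2.

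Clusters of low signal were lower in KOC. The clusters were put in 10 groups of 2341 by mean signal. In the dimmest group the median difference was -0.10, and KOC and WTC were apart downward in 20.4% of clusters and upward in 1.79%. In group 9 of 10 the median was 0.05, with 1.84% and 13.2%. KOT minus WTT showed a similar course, from -0.06 in the dimmest group to 0.03 in group 9. When cyclic loess was applied to the arrays, the dimmest group lay at -0.04, and the counts of separated clusters turned from 1611 higher and 2194 lower to 1665 and 1487. With all array medians made equal they were 3049 and 1277. At an unadjusted p under 0.05 the counts were 847 higher and 1005 lower with loess, and 1405 and 995 with equal medians. So the excess of lower over higher clusters depended on the scaling.

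**Figure D4:**
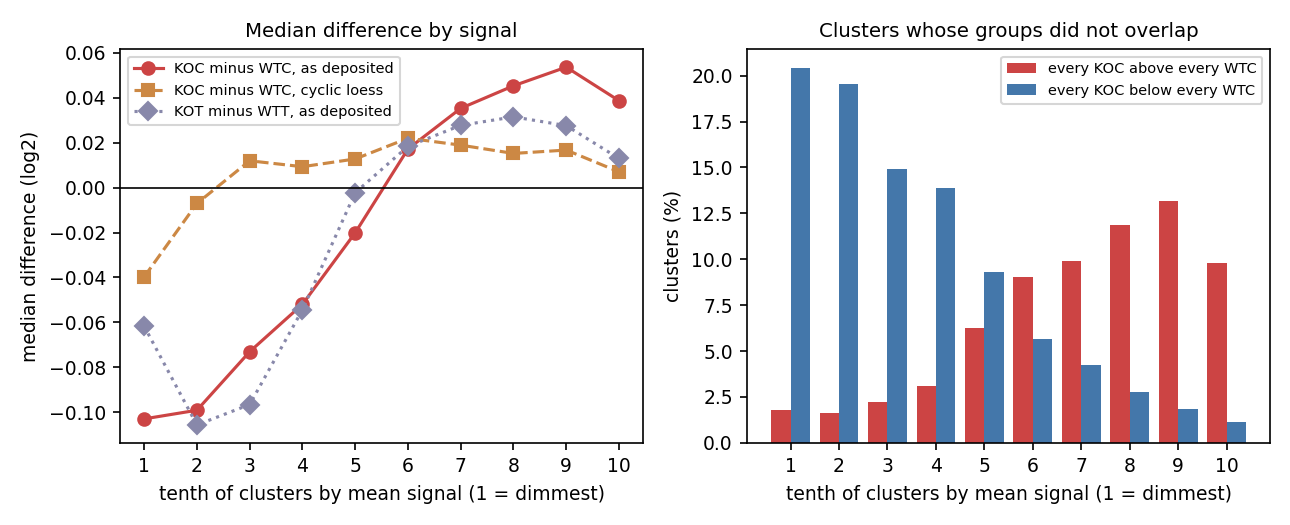
Left, median difference between genotypes (log2) in 10 equal groups of the 23410 clusters by mean signal, as deposited and after cyclic loess. Right, percent of clusters in each group with KOC and WTC apart, upward or downward. Dim clusters lean lower and bright ones higher in KOC, and loess brings most groups near 0.

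The olfactory receptors, which lung is not known to use widely, were a large part of the dim clusters. Of 1035 clusters, 344 (33.2%) had groups apart downward and 2 upward, and their median difference was -0.21, or -0.14 with loess and -0.17 with equal medians. Their median signal was 4.62, 4.62 and 4.54 in KOC 53, 55 and 67 and 4.93, 4.97 and 4.69 in WTC 76, 157 and 158. WTC 158 lay nearest to KOC. In the next groups of clusters, too, WTC 158 lay below WTC 76 and WTC 157. The 17 clusters of Gm7982 (12 with different values) differed by -1.12 to -0.70, each with groups apart, and their median signal was 5.44, 5.59 and 5.41 in KOC and 6.64, 6.77 and 5.90 in WTC. The 452 clusters with 5 or more gene symbols had medians of 6.30, 6.17 and 6.08 in KOC and 6.91, 6.93 and 6.28 in WTC, and 135 of them (29.9%) were apart downward. Over clusters with 1 symbol the medians were 7.68, 7.69 and 7.73 against 7.71, 7.66 and 7.71. With bleomycin WTT 160 and KOT 81, 1 mouse of each genotype, were the high ones, and the median difference of the clusters with 5 or more symbols was -0.03. These families were picked after their values were seen.

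**Figure D5:**
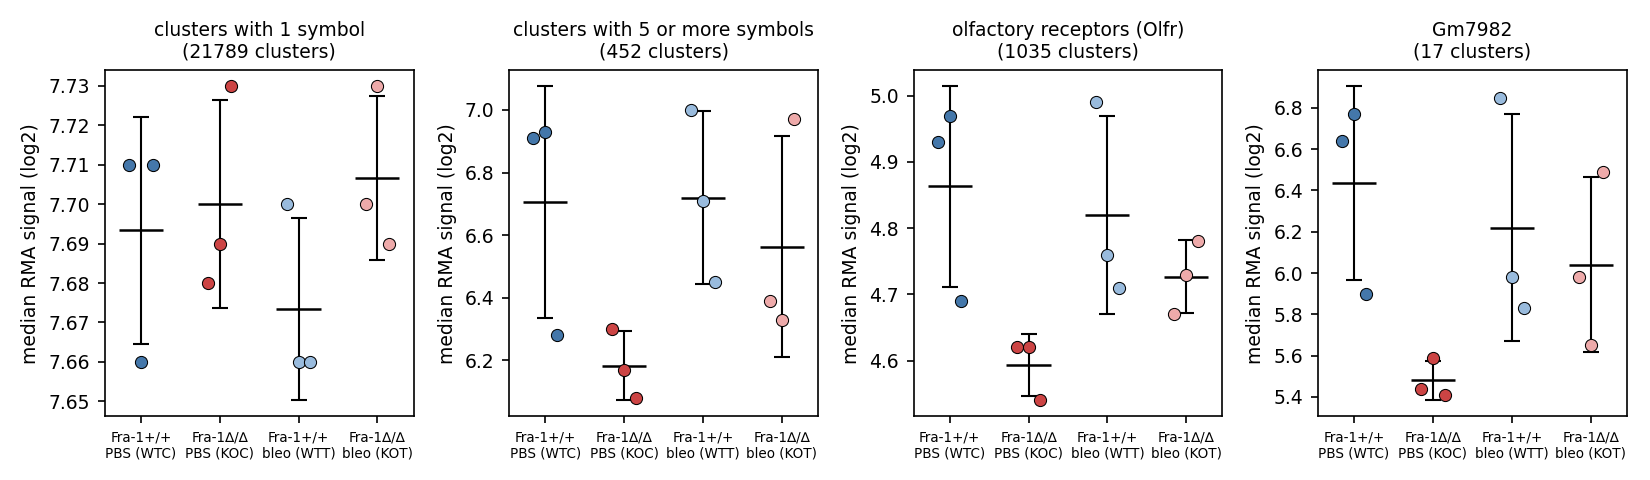
Median RMA signal (log2, each panel on its own scale that does not start at 0) of 4 groups of clusters in each mouse. Points are mice, lines means and bars SD over the 3 mice of a group. Clusters with 5 or more symbols, olfactory receptors and Gm7982 are high in WTC 76 and WTC 157. They are lower in WTC 158 and the 3 KOC mice, a pattern that clusters with 1 symbol do not have.

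The local-pooled-error test (LPE), which the methods name and which takes each cluster's error from clusters of like signal, called 81 clusters higher (0.346%) and 337 lower (1.44%) in KOC at an adjusted p under 0.01. Of the 337, 243 carry several symbols, 147 of them 5 or more, another 17 are Gm7982 clusters, 83 name an olfactory or vomeronasal receptor first, and 179 have a mean signal under 6. Groups were apart in 163 of the 337 and in 25 of the 81 higher ones. The 75 higher calls with 1 symbol cover 73 genes, among them H2-Ea, Abca17, Tmem252, Ighg3, Igkv19-93, Trdn, Veph1, Cytl1, Cftr, Ocel1 and Tc2n, with Reg3g, Ctse and Baiap2l1.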

How the data were processed

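Affymetrix MoGene 1.0ST arrays of left lung, 1 per mouse, were read from the deposited table, whose log2 values the authors made with Affymetrix Power Tools (quantile normalization over all 12 arrays, RMA, median polish). Versions and the genome build of the annotation are not given in the sources used here. Quantile normalization gives all arrays nearly the same distribution, so changes shared by most genes cannot be seen. Depth does not apply to arrays, and the number of mice limits the precision. Nothing says that the mice came from separate litters, so p-values measure the spread between these mice.

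Groups came from the sample titles. Symbols were taken from the platform's annotation, which gives 21789 clusters 1 symbol and 1621 several, and leaves 12146 without one. A mean was fitted for each of the 4 groups to 23410 clusters with limma 3.58.1 (statmod 1.5.0, R 4.3.3), and KOC minus WTC was tested two-sided with Benjamini-Hochberg adjustment. The LPE test of the methods was rebuilt with 100 signal bins and a spline of 10 df. Scripts were tested on simulated data. For genes with several clusters, the brightest stood for the gene in lists. Named genes were those that passed, the clusters the study lists, the 12 largest differences in each direction among clusters with 1 symbol, an unadjusted p under 0.05 and groups apart, up to 4 genes with the smallest p per list, AP-1 genes, Col1a1, Col1a2, Col3a1, Tgfb1, and up to 5 neighbours on each side. Genes named outside this rule are said to be so. The comparison, lists and genes were chosen with earlier results of these data known. Alternatives were other scalings, filters, tests, sets of arrays and leaving out each mouse.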

Additional observations from a re-analysis of the deposited data

Results flagged for a closer look

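Of the 3805 clusters whose groups were apart with PBS, 88 were apart in the opposite direction with bleomycin. Bdkrb2, Adamdec1 and Col6a2 are 3 of this kind that were flagged. The difference between the treatments, (KOT minus WTT) minus (KOC minus WTC), was -1.01 for Bdkrb2, 0.87 for Adamdec1 and -0.47 for Col6a2. None of these 3 interactions passed by limma after adjustment.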

How the results depend on the processing

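By limma, 3 clusters were higher and 0 lower. The LPE test called 81 and 337, and the fit to the 6 PBS arrays called 1 (H2-Ea) and 0. Leaving out 1 mouse gave 2 to 12 higher and 0 to 7 lower, with 12 and 7 without KOC 67, and 3 lower without WTC 158. The clusters apart in the same direction with both treatments (532) numbered 344 with cyclic loess, 163 at a mean of at least 8, a filter chosen after seeing the data, and 629 to 958 when 1 mouse was left out, since groups of 2 separate more often. The share of promoters with TGACTCA alone was 6.59% for lower genes and 3.7% for higher ones, against 5.4% of all measured genes with a promoter. With a mean signal of at least 6 these shares were 5.4%, 3.0% and 4.9%. Of the 100 genes and clusters with a difference in the text, 84 kept their direction under all settings run. With animal number, low or high, as a term in the fit, which sets KOC against WTC 76, the difference took the opposite sign in Col1a1 (-0.0209), Cxcl13 (-1.26), Fosl1 (0.12), H2-Aa (-0.17), Jun (0.14), Lyve1 (0.11), Muc5ac (-0.00934), Reg3g (-1.25), Saa3 (-0.0851), Serpina1d (0.0986). By LPE medians it did so in Col1a1 (-0.00292), H2-Aa (-0.0837), H2-Eb1 (0.024), Prox1 (0.0655). With equal array medians it did so in H2-Eb1 (0.0361). With cyclic loess it did so in Tgfb1 (-0.00987). Leaving out 1 mouse turned the sign of Col1a1 (-0.0539 to 0.20), Cxcl13 (-0.0986 to 1.35), Flt4 (-0.00997 to 0.26), H2-Aa (-0.0795 to 0.14), H2-Eb1 (-0.14 to 0.16), H2-Eb2 (-0.86 to 0.0831), Jun (-0.16 to 0.00787), Junb (-0.15 to 0.0135), Prox1 (-0.17 to 0.0693), Tgfb1 (-0.0297 to 0.0875), given as the range over the mice left out. None of these genes passed the test in the main fit. The causes of these changes were not tested. No paired analysis was possible because the groups share no replicate numbers. Only 3 mice per group and a mixed strain background limit these comparisons, and the part of strain segments, animal number and cell makeup in any difference was not tested.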

Other observations

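Small nucleolar RNA genes (Snord), which guide the modification of ribosomal RNA and which were looked at after their values were seen, had mostly positive differences in KOC. Of 33 clusters, 11 (33.3%) had groups apart upward and 1 downward, against 6.88% upward over all clusters and 13.2% in group 9 of 10 by signal, where their median signal lies. Their median difference was 0.18, or 0.16 after cyclic loess. The median signal of the family was 9.51, 9.41 and 9.69 in KOC 53, 55 and 67. In WTC 76, 157 and 158 it was 9.45, 9.77 and 9.88, so on this measure the groups overlapped and KOC was not higher. With bleomycin the median was 0.08 and 2 clusters were apart upward.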
